A study of Mus musculus with 2 samples.

Results

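The sustentacular cells described here are the supporting cells of the mouse olfactory epithelium that also held transcripts of Sult1c1, a cytosolic sulfotransferase. They were picked from single-cell counts after leaving out barcodes with fewer than 1000 unique molecular identifiers (UMIs, each standing for 1 captured transcript), with fewer than 500 genes, or with over 10% mitochondrial UMIs. A cell was taken when Cyp2g1 and Cyp2a5, both cytochrome P450 genes, made up at least 1% of its UMIs and it held at least 2 UMIs of Sult1c1. It also had to hold at most 3 UMIs of the neuronal genes Gap43, Gng8 and Omp, at most 4 of the basal keratin genes Krt5 and Krt14, and at most 4 of the gland genes Gpx6, Bpifb3, Bpifb4, Dcpp3, Chil6, Msln and Vmo1. This gave 286 cells of the 8298 kept cells, which in turn came from 12491 barcodes. The 947 cells that met every other condition but held fewer than 2 Sult1c1 UMIs served for comparison and are called the other sustentacular cells.

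The tissue came from the olfactory epithelium of a single male C57BL/6 mouse, in which 1 naris was closed at postnatal day 14 so that this side of the nose received little odorant until collection at postnatal day 28. The closed and the open side were dissociated, frozen and made into 1 library each with the Chromium 3′ v3 chemistry after removal of dead cells. The labels do not tie the barcode endings 1 and 2 of the joined count matrix to a side, so the libraries are called library 1 and library 2 and no value is given to a side. Each condition has 1 animal and 1 library, so no test between them was possible, and the intervals below cover counting error only.

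Sustentacular cells span the epithelium from the apical surface to the basal lamina, insulate the neurons, take up debris and carry a dense smooth endoplasmic reticulum filled with enzymes. Inhaled odorants and toxicants are first oxidised by phase I enzymes, chiefly cytochromes P450 supplied with electrons by Por, and then joined to glutathione, glucuronic acid or sulfate by phase II enzymes. Sulfotransferases such as Sult1c1 move the sulfate group from the donor PAPS, which Papss1 and Papss2 make. Many genes of this epithelium are expressed in zones from dorsomedial to ventrolateral, and in the mouse Acsm4 and Nqo1 are known for the dorsomedial zone.

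Of the 286 cells, 92 came from library 1, where they made up 3.03% (95% exact binomial interval 2.45% to 3.71%) of 3032 kept cells. The other 194 came from library 2, where they made up 3.68% (3.19% to 4.23%) of 5266 kept cells. Among sustentacular cells alone they were 18.9% (15.5% to 22.7%) of 487 in library 1 and 26.01% (22.9% to 29.3%) of 746 in library 2. These intervals cover counting error over cells and give no test between the libraries. The same order appeared at a fixed depth of 2000 UMIs per cell, where 17.0% (13.7% to 20.7%) of 471 and 25.4% (22.2% to 28.7%) of 702 sustentacular cells held a Sult1c1 UMI. In cell classes taken below as background, this share was also higher in library 2 than in library 1. It was 0.704% and 5.47% in Omp cells and 0.549% and 7.79% in Krt5 and Krt14 cells. In Cd79a B cells it was 2.22% and 11.4%, and in S100a8 cells 1.49% and 6.03%. The part of background in the sustentacular shares was not tested. The limit on mitochondrial UMIs bears on these shares: without it the share of sustentacular cells was 25.9% in library 1 and 43.4% in library 2, and at a limit of 5% it was 39.1% and 39.5%, from 9 and 17 cells. Fewer cells of a type and less Sult1c1 RNA per cell could not be told apart in these shares.

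Where 2 values follow each other without a name, the first is from library 1 and the second from library 2. The members' median depth was 6574 UMIs in library 1 and 6619.5 in library 2, against 5931 and 5506 in the other sustentacular cells. Mitochondrial genes took a median of 7.80% and 8.53% of the members' UMIs and 7.82% and 7.87% in the comparison cells. The libraries shared 12 barcode sequences, of which 0 were members in both. All 13 sustentacular markers checked were found in the members, of which Cyp2g1, Cyp2a5 and Sult1c1 were used by the rule. Found here means at least 1 UMI over the members of each library, which background RNA can also give. Beyond those used by the rule, Ermn, which encodes a cytoskeletal protein, stood at 493 and 525 CPM (UMIs of the gene per 1000000 UMIs), against 179 and 156 in all kept cells outside the sustentacular class. Cyp1a2 stood at 1880.3 and 1711 CPM against 417 and 343, and the apical keratin gene Krt18 at 3369 and 2662 CPM against 1267 and 883. The cells outside the class include P450-rich cells left out by a limit on other genes. Those over the gland limit had Ermn at 533 and 520 CPM, so levels outside are those of a mixture. The label describes the members as a group, by summed levels. Ermn was no higher in them than in the other sustentacular cells, at 565 and 561 CPM. The few members near the P450 threshold, given below, had less Ermn or none. Of markers of other cells, Scgb1a1 was at 0 in both libraries and Foxj1, a ciliated cell gene, at 1.60 and 0 CPM. Both belong to the 8 respiratory markers, which summed to 6385 and 5648 CPM in the members, mostly Bpifa1. In the other sustentacular cells these 8 summed to 1868 and 1299 CPM. The 9 genes for mature neurons summed to 260 and 254 CPM in the members, against 255 and 218 in the other sustentacular cells and 5880 and 3476 outside. Omp is among them and is limited by the rule in both sustentacular groups, so these sums were partly set by the rule. The neutrophil markers S100a8 and S100a9 were at 8.02 and 233 and at 9.63 and 147 CPM, with 80.1% and 91.9% of their UMIs in library 2 in 3 cells. The 6 neutrophil markers summed to 17.6 and 567 CPM in the members, with 4 of them at 0 in library 1, against 252 and 1123, the gland markers to 924 and 1008 against 963 and 1007, and those of microvillous ionocytes to 359 and 233 against 138 and 169. Most of the gland markers are genes that the rule limits in both groups, so the gland sums were partly set by it. The part of these markers of other cells in the results was not tested. Several genes named below were likewise carried by few cells.

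Sult1c1 itself was used by the rule, and its level is a description. A member held between 2 and 55 UMIs in library 1, with a median of 6, and between 2 and 225 in library 2, with a median of 8. Summed over cells this was 1394 CPM (95% interval 1303 to 1490.1) in library 1 and 1743 CPM (1677 to 1811) in library 2. Library 2 thus had the higher level, and its cells with 16 or more UMIs were 7.10% of its sustentacular cells against 2.87% in library 1. Members at the lower edge were common: 98 of the 286, or 34.3%, held only 2 or 3 UMIs. Cells with 1 UMI, just outside the rule, were 9.65% and 13.5% of sustentacular cells, and those with 2 UMIs, just inside, 4.52% and 5.23%.

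**Figure D1:**
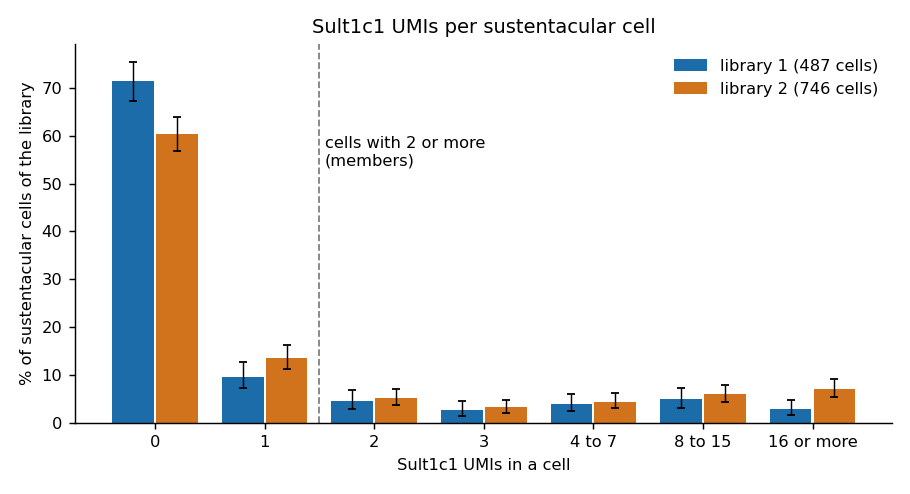
Share of the sustentacular cells of each library (y axis, percent) by the number of Sult1c1 UMIs they held (x axis), with exact 95% binomial intervals. The members lie to the right of the dashed line, and cells with 0 UMIs made up 71.5% of library 1 and 60.5% of library 2.

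Sult1c1 was not confined to the members. They held 3492 of the 11661 Sult1c1 UMIs in kept cells, or 29.9%. Another 336 cells rich in P450 transcripts, which exceeded a limit on neuronal, basal or gland genes and so were left out, held 5247 with at least 2 UMIs each. The order of levels after the members was as follows. Cells rich in P450 but over the gland limit stood at 354 and 483 CPM and those over the neuron limit at 313 and 568 CPM, and these neighbours changed places between the libraries. Gland cells with more than 20 UMIs of the gland genes and under 1% P450 came next at 77.4 and 228 CPM. Cells that should lack the gene gave low levels, taken as background: 12.95 and 33.2 CPM in mature neurons with at least 10 Omp UMIs, 4.23 and 35.2 in Krt5 and Krt14 cells, 9.79 and 90.1 in Cd79a B cells and 32.4 and 38.03 in S100a8 cells. The other sustentacular cells, at 17.6 and 27.4 CPM, lay within that range in library 1 and below it in library 2, and the rule itself holds each of them to at most 1 UMI. Their level was therefore set by the rule and does not show whether they express the gene. The background was higher in library 2 in each of these 4 classes. At least 2 Sult1c1 UMIs were found in 0.879 and 3.06% of the Omp cells, at median depths of 5393 and 5108 UMIs, against 18.9% and 26.01% of sustentacular cells. The absolute limit of 4 gland UMIs also acts by depth: the 750 cells over it had a median of 9164 UMIs and only 0.100% of UMIs from gland genes, against 0.0202% in the sustentacular cells.

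Of the values that chose the cells, the P450 share had few cells near its threshold. Only 1 and 4 members had a share between 1% and 1.2%, and 5 and 12 cells that met the rest of the rule lay between 0.8% and 1%. Both sets were rich in Bpifa1, an antimicrobial protein of the airway surface, which reached 357836 and 134905 CPM inside the threshold and 168049 and 86126 CPM outside. Inside the threshold, the 1 member of library 1 had 0 CPM of Ermn and 0 of Cyp2g1. The 4 members of library 2 had Ermn at 179 and Cyp2g1 at 2150 CPM. The median P450 share over members was 5.13% in each library, against 2.35% and 2.29% in the other sustentacular cells.

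Against the other sustentacular cells, the members held more Sult6b1, Acsm4, Svopl, Crabp1 and Fmo6 and less Cyp4b1, Ptn, Fgl2 and Gstm1 in both libraries. A gene was taken as measured where the mean CPM of the 2 cell groups was at least 20 and they held at least 50 UMIs, in each library. Ratios are on the log2(CPM + 1) scale. Of 5803 measured genes, 49 (0.844%) were past 2-fold higher in the members in both libraries and 47 (0.81%) past 2-fold lower. The 49 include Sult1c1 and Cyp2g1, which are genes of the rule. Since Sult1c1 chose the cells and related genes come from the same cells, these counts are a description with no test. Leaving out, for each gene and cell group, the 3 cells with the most UMIs kept 39 of the 49 and 46 of the 47.

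Sult6b1, a second sulfotransferase gene, had the largest ratio after Sult1c1, at 680.3 CPM (95% interval 617 to 748) in library 1 and 344 CPM (315 to 375) in library 2 in the members. In the other sustentacular cells it stood at 15.7 CPM (95% interval 11.3 to 21.3) in library 1 and 10.04 CPM (7.07 to 13.8) in library 2, which is 43.2-fold and 34.3-fold lower. It was found in a minority of members, 26.1% and 17.5%, and in 4.56% and 3.99% of the comparison cells. Papss2, which makes the sulfate donor, was by contrast found in nearly all members, 90.2% and 89.2%. Its level was 558 CPM (95% interval 501 to 620.2) in library 1 and 540.1 CPM (504 to 579) in library 2, against 136 and 127 CPM in the comparison cells, 4.11-fold and 4.26-fold higher. Its paralog Papss1 had log2 ratios of only 0.10 and -0.14. Of the other sulfotransferase genes, Sult1b1 had log2 ratios of 0.26 and -0.43, opposite in sign, and the oestrogen sulfotransferase gene Sult1e1 was lower, at 6.42 and 28.6 against 80.9 and 79.2 CPM.

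Acsm4, a medium-chain acyl-CoA synthetase gene, stood at 91.4 CPM (95% interval 69.3 to 118) in library 1 and 95.7 CPM (80.7 to 113) in library 2 and in the comparison cells at 4.12 and 5.70 CPM, 22.2-fold and 16.8-fold lower. It was found in 31.5% and 29.4% of members and 2.53% and 3.08% of the comparison cells. Mature neurons also held it, at 51.3 and 50.2 CPM, so Acsm4 was not particular to the members. Svopl, a transporter-like gene related to a synaptic vesicle protein, stood at 358 and 221 CPM against 14.98 and 18.2. Crabp1, which binds retinoic acid in the cytosol, stood at 491 and 433 CPM against 20.6 and 46.9. Fmo6, a flavin monooxygenase gene, stood at 239 and 139.5 CPM against 12.7 and 16.3. For these 3 genes library 1 was the higher within the members, while in the comparison cells library 2 was.

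The windows of 250 bases before the start of Sult1c1, Sult6b1 and Acsm4 are printed because these genes had the 3 largest ratios when ranked by the library with the smaller one, Sult1c1 by choice of the cells. In the deposited build mm10 the genes lie at chr17:53961615-53990674 (Sult1c1, ENSMUSG00000023943), chr17:78883938-78906992 (Sult6b1) and chr7:119690026-119714565 (Acsm4), by GENCODE M21. The Sult1c1 window follows the RefSeq start, which lies inside the GENCODE gene. The windows are RefSeq sequences on build GRCm38.p6, which carries the coordinates of mm10, and read 5′ to 3′ on the gene's strand. Capitals mark matches on either strand to TATAAA, the TATA box, to TTGGC, a binding element of nuclear factor I, or to TGACNNNGC, the core of the antioxidant response element. The 3 motifs did not overlap in these windows.
Sult1c1 (chr17:53990632-53990881, minus strand): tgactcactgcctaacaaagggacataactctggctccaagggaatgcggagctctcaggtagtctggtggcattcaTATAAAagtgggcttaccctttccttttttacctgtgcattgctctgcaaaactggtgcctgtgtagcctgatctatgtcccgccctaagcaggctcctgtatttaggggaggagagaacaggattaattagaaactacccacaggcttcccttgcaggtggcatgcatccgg
Sult6b1 (chr17:78906993-78907242, minus strand): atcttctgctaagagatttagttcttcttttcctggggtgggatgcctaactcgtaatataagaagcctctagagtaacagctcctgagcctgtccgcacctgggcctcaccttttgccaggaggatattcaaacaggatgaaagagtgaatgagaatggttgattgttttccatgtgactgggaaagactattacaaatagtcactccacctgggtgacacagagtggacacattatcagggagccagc
Acsm4 (chr7:119689776-119690025, plus strand): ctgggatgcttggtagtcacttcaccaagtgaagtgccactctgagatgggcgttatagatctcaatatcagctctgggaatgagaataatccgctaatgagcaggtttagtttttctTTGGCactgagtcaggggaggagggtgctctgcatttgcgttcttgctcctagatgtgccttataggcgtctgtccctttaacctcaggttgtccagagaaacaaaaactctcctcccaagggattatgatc

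TATAAA was matched in Sult1c1, from 173 to 168 bases before the start, and TTGGC in Acsm4, from 132 to 128 bases before it, both on the gene's strand. The Sult6b1 window held none of the 3 motifs. Over all 32841 windows of this length TATAAA occurred in 12.4%, TTGGC in 41.5% and TGACNNNGC in 10.2%, so single matches such as these were common. Cyp2a5, one of the P450 genes of the rule, held TATAAA from 29 to 24 and TTGGC from 125 to 121 bases before its start.

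Other genes higher in the members covered efflux, metal uptake and cell contacts. Abcc5, an efflux pump for organic anions, stood at 122 and 143 CPM against 22.5 and 18.2 and was found in 51.1% and 52.1% of members. Slc39a2, a zinc importer, stood at 186 and 177 CPM against 41.2 and 39.3. Mapt, which encodes the microtubule protein tau, stood at 175 and 156 CPM against 36.7 and 33.6. These 3 genes differed little between the libraries. The claudin gene Cldn10 stood at 62.6 and 49.8 CPM against 10.5 and 11.9, and Adgrv1, a large adhesion receptor gene, at 65.8 and 85.7 against 14.6 and 22.5. A830018L16Rik stood at 62.6 and 56.5 CPM against 8.24 and 4.88. The glutathione transferase gene Gstm5 stood at 83.4 and 122 CPM against 19.1 and 15.5, with 36.5% and 38.3% of the members' UMIs in 3 cells. Rgs5, a regulator of G protein signalling, stood at 81.8 and 229 CPM against 13.1 and 12.2, with 58.8% and 26.96% of the members' UMIs in 3 cells, and outside the sustentacular class it was at 1061 and 832 CPM. Bpifa1 completed the list at 5969.9 and 5084 CPM against 1127 and 679, with 99.8% and 78.7% of its UMIs in 3 cells. Without those cells its log2 ratio in library 1 became -2.11, so its direction rested on them.

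**Figure D2:**
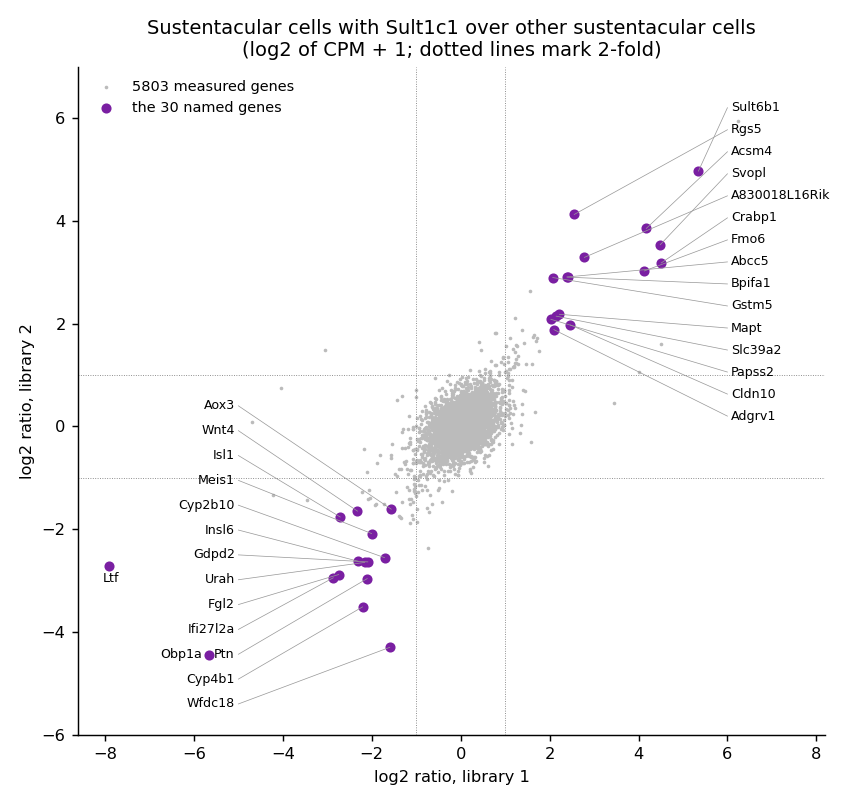
Log2 ratio of the members over the other sustentacular cells in library 1 (x axis) and library 2 (y axis), each point 1 of 5803 measured genes, with the 30 genes named by size in purple. Sult1c1, which chose the cells, is the unlabelled grey point at 6.23 and 5.94, and the named genes lie past 2-fold on the same side in both libraries.

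Genes lower in the members included other P450 genes, growth signals and transcription factors. Cyp4b1, a fatty acid and xenobiotic P450, stood at 124 CPM (95% interval 97.5 to 154) in library 1 and 52.5 CPM (41.6 to 65.4) in library 2, against 574 and 609 CPM in the other sustentacular cells. It was found in 14.1% and 13.9% of members and 71.4% and 75.7% of the comparison cells. Cyp2b10 stood at 36.9 and 21.3 CPM against 123 and 129.7 and the aldehyde oxidase gene Aox3 at 24.1 and 15.9 against 73.05 and 50.7. Ptn, which encodes the growth factor pleiotrophin, stood at 70.6 and 37.9 CPM against 306 and 302, and the signalling ligand gene Wnt4 at 20.9 and 34.5 against 108 and 110.4. Of the homeobox genes, Meis1 stood at 17.6 and 17.3 CPM against 73.8 and 76.5 and Isl1 at 16.04 and 32.6 against 111 and 113. Insl6, of the insulin and relaxin family, stood at 48.1 and 47.8 CPM against 242 and 299.8, and Fgl2, a fibrinogen-like gene, at 22.5 and 19.3 against 156 and 148. Urah, an enzyme gene of urate breakdown, stood at 9.63 and 5.31 CPM against 46.5 and 38.5, and Gdpd2, a phosphodiesterase gene, at 9.63 and 5.31 against 44.2 and 38.3. Ifi27l2a, an interferon-stimulated gene, stood at 36.9 and 42.5 CPM against 275 and 334. Few cells held some of these low levels. In library 1, 3 cells held all UMIs of Aox3, 86.96% of those of Ifi27l2a, 83.3% of Urah and of Gdpd2, 70% of Isl1, 64.3% of Fgl2, 58.4% of Cyp4b1, 53.8% of Wnt4 and 52.2% of Cyp2b10. The secreted proteins Obp1a, Ltf and Wfdc18 were also lower in summed level. In library 2 they had 85.8%, 89.5% and 34.01% of the members' UMIs in 3 cells, and Wfdc18 had 99.1% in library 1. Of the comparison cells, 3 held 92.8% and 99.07% of the Obp1a UMIs and 64.9% and 85.98% of those of Wfdc18. Obp1a was found in 7.61% and 12.9% of members and 7.09% and 11.2% of the comparison cells. For Wfdc18 these shares were 65.5% and 63.04% in library 2, and lower in the members in library 1. The lower sums of Obp1a and Wfdc18 thus rest largely on few comparison cells. The log2 ratio of Obp1a in library 2 became 2.07 without the 5% of cells with the highest UMI counts. Ltf, the lactoferrin gene, had 0 UMIs in the members of library 1, which is at least 49.8-fold lower than the 239.8 CPM of the comparison cells, taking 3 UMIs over the group as the floor. Only 2.03% of those comparison cells held Ltf, with 66.6% of its UMIs in 3 cells. This fold therefore rests on few comparison cells and does not describe the members as a whole.

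Gene lists for detoxification showed that phase I and phase II genes did not differ as a block. For scale, over all measured genes 37.1% were higher in both libraries and 27% lower in both, with median log2 ratios of 0.04 and 0.03. In the cytochrome P450 system 12 of its 15 measured genes were higher in both libraries and 3 lower in both, with medians of 0.41 and 0.36. Cyp2a5 and Cyp2g1 belong to the rule, and reads of Cyp2a5 may include those of its near-identical paralog Cyp2a4. Outside the rule, Por stood at 2684 and 2325 CPM against 1675 and 1470.3, the electron carrier gene Cyb5a at 3092 and 2967 against 2466 and 2375, Cyp2j6 at 467 and 458 against 336 and 297 and Cyp27a1 at 205 and 129 against 101 and 93.3. Cyp2f2 was nearly level, at 3055 and 2899 against 2768 and 2841 CPM, while Cyp4b1, Cyp2b10 and Cyp39a1 were lower.

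Of other phase I enzymes, 7 of 23 were higher in both libraries and 9 lower. Nqo1, a quinone reductase gene, was higher with Fmo6, at 46.5 and 33.2 CPM against 14.2 and 8.95. Fmo1, at 68.99 and 63.1 against 145 and 152 CPM, and the epoxide hydrolase gene Ephx1, at 1043 and 591 against 1471 and 1360.2, were lower. Cbr2, a carbonyl reductase gene and a strong sustentacular marker, was level at 8882 and 9253 against 9232 and 9688 CPM. In phase II conjugation 12 of its 25 measured genes were higher in both libraries and 9 lower in both, and single families held genes of both directions. Sult1c1, which chose the cells, is among the 12. Of the measured glutathione transferase genes of the mu class, Gstm5 was higher and Gstm1, Gstm2 and Gstm4 lower. Gstm1 stood at 4686 CPM (95% interval 4518 to 4859) in library 1 and 4361 CPM (4257 to 4468) in library 2, against 13477 and 13575 CPM in the comparison cells, 2.88-fold and 3.11-fold higher there. Gstm2 stood at 1187 and 1105 CPM against 1756 and 1760.4 and Gstm4 at 60.97 and 73.7 against 166 and 146, and Gstt1 of the theta class at 38.5 and 27.9 against 83.5 and 94.2. The mu genes are close paralogs and reads may be split among them. On the higher side, the microsomal transferase gene Mgst1 stood at 2703 and 2209.6 CPM against 1805 and 1629, and Ugdh, which makes the donor for glucuronidation, at 674 and 737 against 475 and 495. The glucuronosyltransferase gene Ugt2a1 had log2 ratios of 0.10 and 0.41. In antioxidant defence 9 of its 20 measured genes were higher in both libraries and 5 lower in both, and Gclc, the rate-limiting step of glutathione synthesis, had log2 ratios of 1.10 and 0.80 while Prdx6, a peroxiredoxin gene, stood at 4584 and 3714 CPM against 9659 and 10247.

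**Figure D3:**
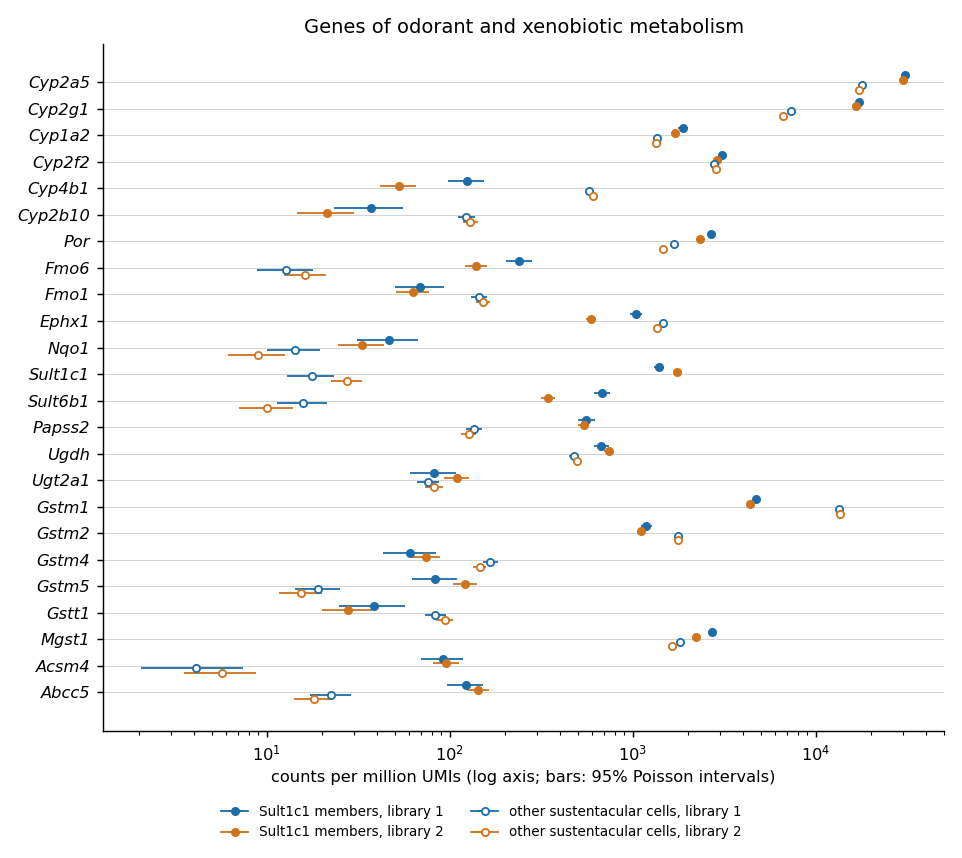
Levels in CPM (x axis, log scale) of 24 genes of odorant and xenobiotic metabolism in the members (filled) and the other sustentacular cells (open) of library 1 (blue) and library 2 (orange), with exact 95% Poisson intervals. Sult6b1, Acsm4, Fmo6 and Abcc5 lie to the right in the members and Cyp4b1, Cyp2b10, Gstm1 and Gstt1 to the left, in both libraries.

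Of single genes with zonal expression, the dorsomedial genes Nqo1 and Acsm4 were higher in both libraries. Nfia, at 133 and 149 CPM against 251 and 289, Nfix, at 65.8 and 61.1 against 116 and 138, and Nfib, at 371 and 396 against 418 and 435, all nuclear factor I genes, were lower in both libraries, Nfib by log2 ratios of only -0.17 and -0.14. Of epithelial transcription factors, 14 of 27 were lower in both libraries and 6 higher, with medians of -0.10 and -0.20. Id3, an inhibitor of basic helix-loop-helix factors, stood at 125 and 76.4 CPM against 272 and 206, and Cebpd at 185 and 154 against 427 and 275, whereas Sox2 had log2 ratios of 0.22 and -0.04 and Otx2 of 0.12 and 0.17.

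Of the 15 measured genes of mucus and secreted defence, 5 were higher and 7 lower in both libraries, with 1 past 2-fold higher and 6 past 2-fold lower and medians of -0.43 and 0.10, which differ in sign. The uteroglobin-family gene Scgb1c1 was lower, at 2530.1 and 4109 CPM against 9680.4 and 11897, as were the membrane mucin genes Muc1, at 77.01 and 39.2 against 163 and 139, and Muc4, at 35.3 and 29.9 against 89.9 and 84.9. The gel-forming mucin gene Muc2 was on the higher side, at 1259 and 1327 CPM against 814 and 904, and Muc16 level at 476 and 499 against 442 and 464. Interferon-response genes leaned lower: 6 of 9 were lower in both libraries and 0 higher, with Ifitm3 at 81.8 and 137 CPM against 347 and 325 and Ifi27 at 52.9 and 95.7 against 228 and 258. The alarmin gene Il33 was on the higher side, at 844 and 1107 CPM against 639 and 685. Of the unfolded protein response, 10 of 11 genes were higher in both libraries and 0 lower, but by little, with medians of 0.19 and 0.22 and Hsp90b1 at 0.31 and 0.41. Immediate early genes had 8 of 14 lower in both libraries, with Ier3 at -0.82 and -0.50 and Junb at -0.57 and -0.40, and 1 higher. Genes of the Notch pathway, ion and water transport, oxidative phosphorylation and dead cell clearance had medians between -0.02 and 0.21 in each library. Efflux, retinoid, viral entry, growth factor, heat shock and lipid genes had medians between 0.01 and 0.25 in each library, inflammation genes medians of -0.36 and -0.29, and only 2 cell cycle genes were measured. Sustentacular cells are known to clear dead neurons, and Tyro3, a receptor for that task, stood at 817 and 729 CPM against 618 and 580.4.

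For several genes the differences were larger in cells with more Sult1c1, and cells with 2 UMIs lay between those with 0 and those with 16 or more for Papss2, Svopl, Gstm1 and Cyp4b1. These levels are a description, since Sult1c1 UMIs chose the cells. Papss2 stood at 124 and 114 CPM in sustentacular cells with 0 Sult1c1 UMIs, at 227 and 179 with 1, at 402 and 348 with 2 and at 852 and 814 with 16 or more. Svopl went from 14.3 and 17.6 CPM at 0 UMIs through 47.7 and 73.5 at 2 to 609 and 406 at 16 or more. Gstm1 ran the other way, from 13882 and 14314 CPM at 0 through 7844 and 7737 at 2 to 1309 and 1306 at 16 or more. Cyp4b1 was found in 73.6 and 78.5% of cells with 0 Sult1c1 UMIs, 31.8 and 25.6% with 2 and 0 and 1.89% with 16 or more. For Sult6b1 the libraries differed. In library 2 it rose from 7.77 CPM at 0 UMIs through 27.1 at 2 and 81.7 at 4 to 7 to 637 at 16 or more. In library 1 it stood at 1322 CPM at 4 to 7 UMIs, 1012 at 8 to 15 and 558 at 16 or more. Ermn stayed between 457 and 572 CPM over all these bins. Median depth was similar over the bins of members, from 5576 to 7271 UMIs.

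**Figure D4:**
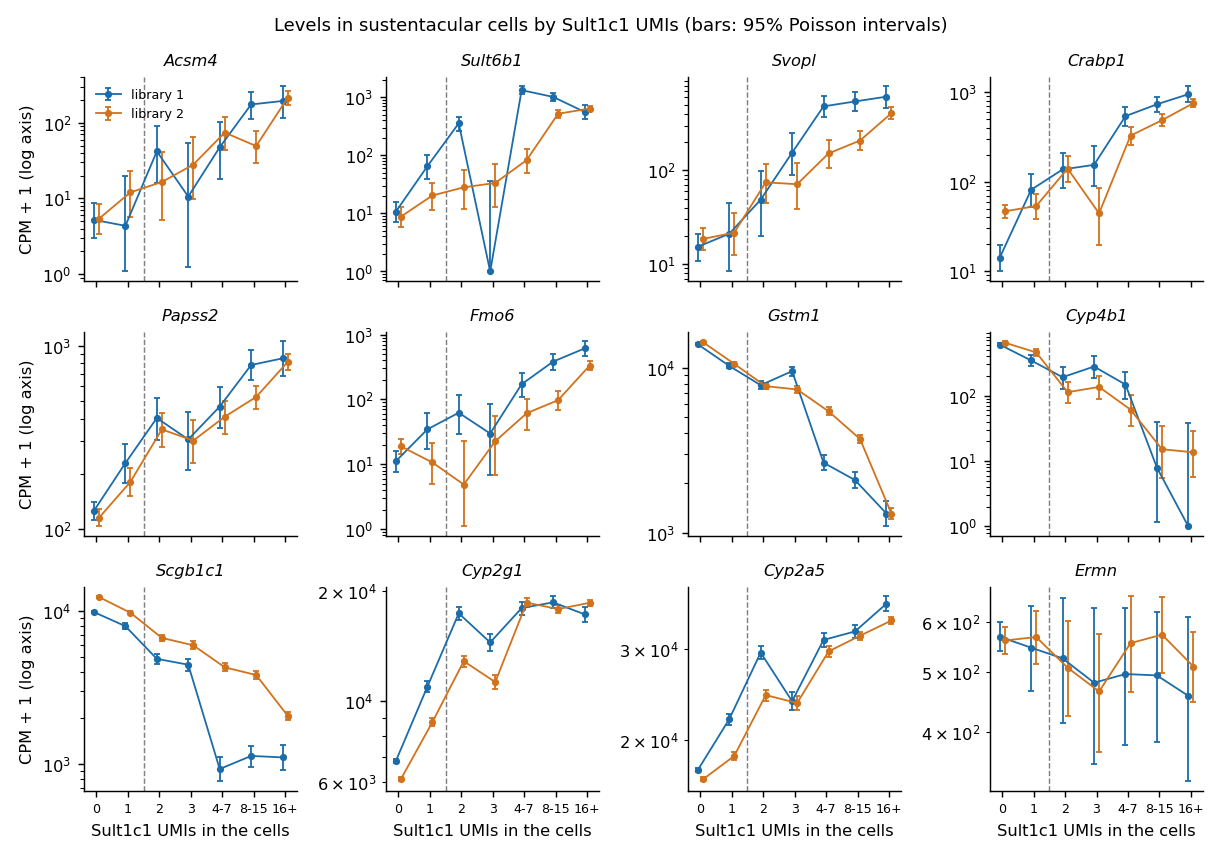
Levels (y axes, CPM + 1 on log scales) of 12 genes in sustentacular cells grouped by their Sult1c1 UMIs (x axes) in library 1 (blue) and library 2 (orange), with exact 95% Poisson intervals. Members lie to the right of the dashed lines. Papss2, Svopl and Crabp1 are higher and Gstm1, Cyp4b1 and Scgb1c1 lower at 16 or more UMIs than at 0 in both libraries, whereas Ermn stays level.

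Within the members alone, cells were ordered by the share of Sult1c1 in their UMIs and cut into 5 groups of 57 or 58 cells, both libraries together. From the lowest to the highest group, Acsm4 stood at 12.3, 37.04, 74.8, 132 and 296 CPM and Fmo6 at 8.76, 44.4, 118, 219 and 619. Rgs5 stood at 15.8, 69.1, 177, 182 and 643 CPM and Slc25a35, a mitochondrial carrier gene, at 1.75, 17.3, 23.5, 36.5 and 277. Nqo1 stood at 15.8, 17.3, 23.5, 56.1 and 97.5 CPM. The libraries differed in the top group, where Rgs5 stood at 159 and 788 CPM, and Acsm4 at 172 and 332 after 218 and 88.4 in the group before it. In the other direction Cyp4b1 stood at 203, 64.2, 23.5, 8.42 and 0 CPM, Gstm1 at 8085, 6139, 3054, 2017 and 716 and Meis1 at 45.5, 9.88, 10.7, 5.61 and 0. Cyp2g1, a gene of the rule, stood at 12048, 16634, 18849.6, 20382 and 18192 CPM. Several of the most extreme genes in this ordering came from few cells: Mgp, Obp1b and Slc5a8 among the genes higher toward the top group had 100%, 83.97% and 61.7% of their library 2 UMIs in 3 cells. Vpreb3 stood at 3.50, 14.8, 42.7, 30.9 and 85.3 CPM. Among those lower toward it, Fxyd2, Cartpt, Muc5b, Ngp, Lyz2, Ltf and Bpifa1 had at least 78.7% of theirs in 3 cells.

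Genes were ranked by the variance over the mean of the members' UMIs at 2000 UMIs per cell. The highest were Bpifa1, Reg3g, Wfdc18, Gstm1, Mt1, Sult6b1, Coch, Malat1, Scgb1c1, Tff2, Edn2 and Gstm5. This ratio can be high for a gene of high mean, such as Malat1 at 30.8 and 29.1 UMIs per cell. The variance over the mean was 12.8 and 18 for Gstm1 and 8.87 and 10.6 for Sult6b1, where counting alone gives 1. Mt1, a metallothionein gene, gave 15.97 and 12.6, and Edn2, an endothelin gene, 7.32 and 5.91. Bpifa1, Reg3g, Coch and Tff2 had at least 65.2% of their UMIs in 3 cells in each library, and Wfdc18 had 99.1% in library 1. Of airway lining markers, Foxj1 and Scgb1a1 were near or at 0 as given above, while the 8 respiratory markers, mostly Bpifa1, summed to 6385 and 5648 CPM in the members against 1868 and 1299 in the other sustentacular cells. Their part in the spread was not tested.

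Members were also divided by Sult6b1, a split chosen after these values were known and given with no test. Members with at least 2 Sult6b1 UMIs were 20 of 92 in library 1 and 22 of 194 in library 2. Acsm4 stood at 30.03 and 16.98 CPM in these cells, from 4 and 3 UMIs, and at 104 and 109 CPM in the 68 and 160 members with 0 Sult6b1 UMIs. Both genes were found in a minority of members, and these few Acsm4 UMIs do not show that the cells are separate. Scgb1c1 was at 338 and 724 CPM in the Sult6b1 cells against 3282 and 4808, and Gstm1 at 1479 and 1590.3 against 5681 and 4801. Crabp1 was at 961 and 1069.6 CPM against 344 and 328, Svopl at 518 and 436 against 309 and 198 and Fmo6 at 481 and 453 against 169.6 and 102. Papss2 was alike in both sets, at 563 and 583 against 563 and 533 CPM. Median depth was 6606 and 7118 UMIs in the Sult6b1 cells and 6444 and 6497 in the rest.

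Gstm1 also divided the members widely. It was under 500 CPM in 25 and 21.6% of members and in 1.52 and 0.725% of the other sustentacular cells. At 8000 CPM or more lay 17.4 and 15.5% of members and 77.97 and 78.8% of the others. From the lowest to the highest of 4 Gstm1 ranges, with bounds at 500, 2000 and 8000 CPM, the members' Sult1c1 in library 2 stood at 3653, 1983, 950.5 and 419.7 CPM. In library 1 it stood at 2289, 1798, 934 and 452 CPM.

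Against kept cells outside the sustentacular class, Sult6b1, Slc39a2, Adgrv1, Sec14l2, Papss2, Zmynd12, Hs3st6, Depdc7, Rhod, Gldn, Fgf20, Abca13, Nadk2, Cyp27a1 and Muc2 led, apart from the rule's genes. Sec14l2, a lipid-binding protein gene, stood at 1508 and 1342 CPM in the members, 830.1 and 674 in the other sustentacular cells and 247 and 179 outside. Hs3st6, a heparan sulfate sulfotransferase gene, stood at 96.3 and 91.7, 41.2 and 39.9 and 16.5 and 16.6 CPM in the same order. The growth factor gene Fgf20 stood at 194 and 155, 143 and 96.6 and 37.9 and 25.2 CPM, and Nadk2, a mitochondrial NAD kinase gene, at 377 and 322, 208 and 153 and 75.4 and 58.3. In each of these the level in the other sustentacular cells lay between the members and the remaining cells, which include P450-rich cells over a limit of the rule.

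Between the libraries the members were alike in most measured genes. Of 5659 genes, 69 (1.22%) were past 2-fold higher in library 2 and 33 (0.583%) past 2-fold lower, with 49.4% and 50.6% on either side at any size. Leaving out the 3 cells with most UMIs for each gene kept 62 of the 69 and 14 of the 33, where 3 cells are a larger part of the 92 members of library 1 than of the 194 of library 2. Of the 69, 29 stood at or above the level outside the sustentacular class, and of the 33, 28 did. The comparison has 1 animal and 1 library a side and the side of each library is unknown, so the values below describe these libraries.

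Igfbp5, which binds insulin-like growth factors, was the lower gene in library 2 with the most cells behind it: 1094 CPM (95% interval 1014 to 1179) in library 1 and 467 CPM (433 to 503) in library 2, in 98.9% and 84.5% of members. Its log2 ratio of library 2 over library 1 was -1.23 (95% interval -1.38 to -1.07), against -0.61 in the other sustentacular cells and -0.48 outside. Eif2b3, a translation initiation factor subunit gene, stood at 247 and 98.99 CPM, with log2 ratios of -1.31 in the members and -0.36 in the comparison cells. Ache, the acetylcholinesterase gene, stood at 51.3 and 20.6 CPM, with -1.28 in the members and -1.04 in the comparison cells. Rars, a transfer RNA synthetase gene, stood at 41.7 and 17.3 CPM. Fxyd2, Bglap3, Ly6d, Tfcp2l1, Cat, Pam, Stap1 and Cyp4b1 were also lower in library 2, but each had at least 58.4% of its library 1 UMIs in 3 cells.

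Chil4, a chitinase-like protein gene, was the most different gene on the higher side, with 0 UMIs in the members of library 1 and 828 CPM in library 2. This is at least 172-fold higher, taking 3 UMIs over the library 1 members as the floor. It was found in 7.73% of the library 2 members, with 60.9% of its UMIs in 3 cells, and it was also higher in library 2 in the other sustentacular cells, at 16.9 and 779 CPM, and outside, at 1.38 and 242. The odorant-binding protein genes Obp2a and Obp2b were at 0 in library 1 members and at 101 and 63.8 CPM in library 2, where cells outside stood at 4592 and 2461 CPM. Lrig1, a brake on growth factor receptors, stood at 11.2 and 38.5 CPM, and Spon2, a matrix protein gene, at 14.4 and 47.8. Axin2, a target and inhibitor of Wnt signalling, stood at 11.2 and 29.2 CPM, and Synm, an intermediate filament gene, at 20.9 and 53.1. In the other sustentacular cells the log2 ratios of these 4 genes were 0.01, -0.73, 0.47 and 0.30, where the members had 1.69, 1.66, 1.31 and 1.31. In library 1 each of the 4 rested on few transcripts, from 7 to 13 UMIs over all members. Ctgf, a matricellular protein gene, stood at 93.1 and 245 CPM, and Apoc1, an apolipoprotein gene, at 33.7 and 106. Tdrd3, Kif1c, Acss2, Klhdc10 and Ppp1r27 completed the list, with log2 ratios from 1.37 to 1.57, and Ppp1r27 had 71.4% and 76.1% of its UMIs in 3 cells. Tmprss2, a membrane protease gene that primes viral entry, stood at 94.7 and 228 CPM, a log2 ratio of 1.26 against 0.03 in the other sustentacular cells.

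**Figure D5:**
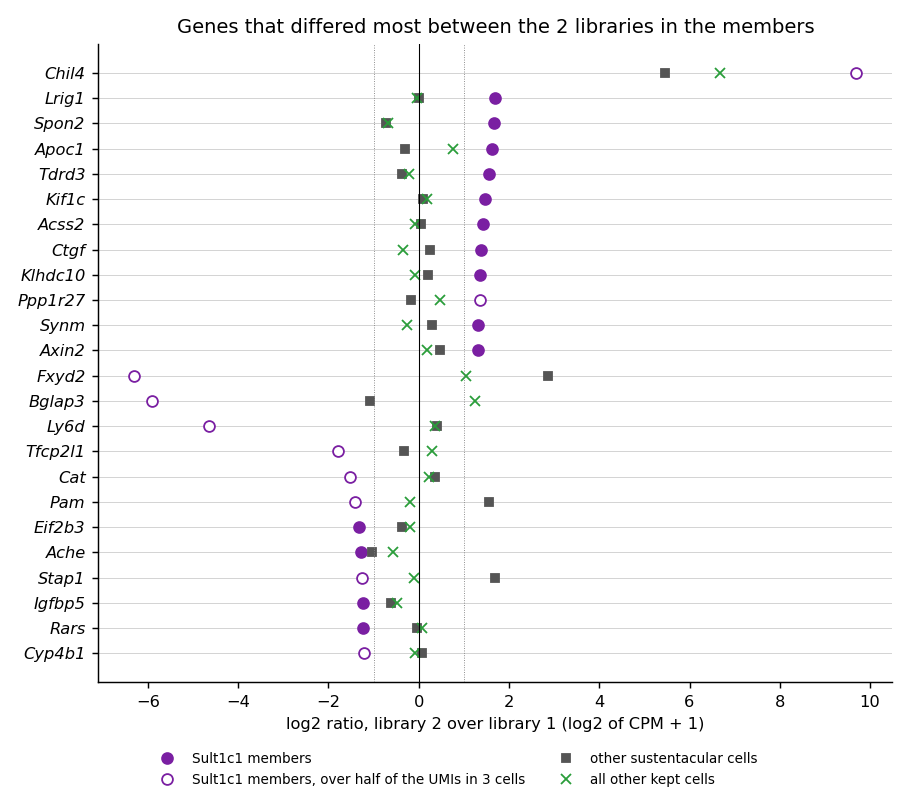
Log2 ratio of library 2 over library 1 (x axis) for the 24 genes named by size in the members (circles, open where 3 cells held most of the UMIs of the higher library), with the other sustentacular cells (squares) and all other kept cells (crosses). Chil4 is higher in library 2 in all 3 cell sets, whereas the crosses and squares of Lrig1, Kif1c and Acss2 lie near 0.

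Most lists had small medians between libraries. The widest counts were in mucus and secreted defence, where 12 of 18 genes were higher in library 2, 6 of them past 2-fold, with a median of 0.29, and in the neutrophil markers, where 4 of 4 were past 2-fold higher. Detoxification genes leaned lower in library 2: 12 of 15 genes of the P450 system, with a median log2 ratio of -0.08, and 16 of 23 of phase II, with a median of -0.10. Sult1c1, chosen by the rule, was higher at 0.32, Papss2 was level at -0.05, and Sult6b1 was lower at -0.98 (95% interval -1.17 to -0.79), while outside the sustentacular class it had -1.01, a set that holds the P450-rich cells over the gland limit with 944 and 615 Sult6b1 UMIs. Immediate early genes were lower in 12 of 14, with Fos at 5168 and 4206 CPM and Jun at 3039 and 2372, and the ratios in the other sustentacular cells were -0.36 and -0.23, near the members' -0.30 and -0.36. Glycolysis and hypoxia genes were lower in 12 of 15, with a median of -0.31, and genes of the apical surface and junctions in 16 of 22, with a median of -0.22. Interferon-response genes were higher in 7 of 9, with a median of 0.24. Set beside the 50.6% of all genes lower in library 2, the counts of lower genes in the P450, immediate early and glycolysis lists were larger shares, and their medians were all smaller than 1 on the log2 scale. Summed levels of the P450, phase II, immediate early, glycolysis and apical lists were also lower in library 2 in the other sustentacular cells and outside. For the P450 system these sums were 35630.5 and 33823.5 CPM in the other sustentacular cells. Mucus and secreted defence was higher in both sets. Interferon-response sums were higher in the other sustentacular cells but lower outside. Such shifts were thus not particular to the members.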

How the data were processed

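Counts of UMIs per gene and barcode were deposited by the authors as 1 matrix joining both libraries; the submitters' processing notes name Cell Ranger 3.0.2 and the mm10 build. The deposited features file and barcodes file give gene names and barcode endings. The counts were not normalized. All later steps were run here in Python 3.11.15 with numpy 2.4.6, pandas 2.3.3, scipy 1.17.1 and matplotlib 3.10.9.

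Cells were kept and chosen by the stated limits. Kept cells held 21444390 UMIs in library 1 and 37996298 in library 2. UMIs were summed per library and cell group and given as CPM over all genes with exact Poisson intervals at 95%, and shares with exact Clopper-Pearson intervals. Intervals cover counting error only, since the members of a library are cells of 1 animal and not replicates. No doublet caller was run, and mixed cells are limited only by the limits on neuronal, basal and gland genes and by leaving out the 5% deepest cells as an alternative. For fixed depth, cells were thinned to 2000 UMIs. Named genes were the 15 largest ratios in each direction against the other sustentacular cells, ranked by the library nearer 0, the 12 largest in each direction between libraries at or above the level outside the sustentacular class, the 15 leading against other cells, the 12 most variable and 8 in each direction along Sult1c1. Odorant receptor, mitochondrial, repeated and rule genes were not named by size, and other genes come from the lists or were picked after their values were seen. The members, limits and lists were chosen with earlier results of these data known. Interval and ratio code was tested on simulated counts. Of the gene IDs, 99.6% matched GENCODE M21. A result of the zone gene list is not reported here.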

Additional observations from a re-analysis of the deposited data

Results flagged for a closer look

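Barcodes removed before the comparisons held the same signature. Of those outside the limits on UMIs, genes or mitochondrial share, 640 met every other condition for the Sult1c1 sustentacular cells, 136 in library 1 and 504 in library 2, more than the 286 that were kept.

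Pam, Stap1, Fxyd2 and Coch had ratios of library 2 over library 1 past 2-fold in opposite directions in the Sult1c1 cells and the other sustentacular cells; these differences were not tested. Fxyd2 had -6.30 in the Sult1c1 cells against 2.86, with all of its library 1 UMIs in 1 of 92 cells. Pam, an enzyme gene of peptide amidation, had -1.42 against 1.56, and Stap1, an adaptor protein gene, -1.25 against 1.70. Coch had -1.001 against 1.90. In the Sult1c1 cells of library 1, 3 cells held 74.2% of the UMIs of Pam, 80.9% of Stap1 and 100% of Coch.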

How the results depend on the processing

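No paired analysis was possible because each side has 1 library of 1 animal. Main counts were 49 higher and 47 lower against the other sustentacular cells and 69 higher and 33 lower in library 2, with shares of kept cells of 3.03% and 3.68% and of sustentacular cells of 18.9% and 26.01%. At 1 Sult1c1 UMI or more, 26 genes were lower against the others and 38 higher in library 2, with shares of 4.58% and 5.60%, and 28.5% and 39.5%. At 4 or more the shares were 1.88% and 2.49%, and 11.7% and 17.6%. With at most 5% mitochondrial UMIs, which left 26 members, the counts were 6, 11, 27 and 19 and the shares 0.710% and 0.757%, and 39.1% and 39.5%. Without that limit 91 genes were higher against the others and 30 in library 2, with shares of 5.27% and 9.10%, and 25.9% and 43.4%. Halved marker limits gave 1.88% and 2.16% of kept cells. With log2(CPM+5) 20 genes were lower in library 2, with per-cell CPM 60, and with a mean CPM of at least 5, 72 were lower against the others. Of the alternatives chosen after seeing the data, a gland limit of 0.2% of UMIs gave 5.15% and 5.20% of kept cells and 34 genes higher in library 2, and leaving out each gene's 3 top cells gave 30 higher against the others and 113 and 9 between libraries; here the limits on low levels were applied again after removal, unlike in the counts kept above. Log2 ratios against the others that changed sign were Prdx6 at 0.55 and Scgb1c1 at 1.70 in library 1 with at most 5% mitochondrial UMIs, Bpifa1 at -5.39 and -1.78 and Coch at -0.23 in library 2 with 4 or more Sult1c1 UMIs, Bpifa1 at -5.43 and -0.47 when thinned, Obp1a at 2.07 in library 2 without the 5% deepest cells, and Bpifa1 at -2.11 in library 1 without the 3 top cells. Between libraries, Cyp4b1 became 0.64 when thinned, and Wfdc18 5.05 when thinned, 3.60 without the deepest cells and 3.42 without the 3 top cells. Library 2 held the larger share of kept and of sustentacular cells under each of these settings. Medians of 52 lists and comparisons changed sign under at least 1 setting and 23 of them under more than 2, among them inflammation between libraries under 5 of 13 settings and ion and water transport in library 2 under 6 of 14. The cause of these shifts was not tested. Depth limits genes with few UMIs, above all in the 92 members of library 1.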
